A study of Homo sapiens with 12 samples.

Results

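The genes described here are 10 genes of the transforming growth factor beta (TGF-beta) pathway: the ligand gene TGFB1, the latency protein gene LTBP2, the receptor genes TGFBR1 and TGFBR2, and the response genes PMEPA1, SMAD7, SKIL, TGFBI, SNAI1 and SNAI2. They were chosen by name as known members of the pathway, with earlier results of these data known. All 10 were found among the 19251 genes listed. Their mRNA levels were compared between ascites-exposed and untreated cells within each of 2 ovarian cancer cell lines, and between the untreated lines.

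In this pathway a secreted ligand, held latent in the matrix by LTBP proteins, binds a complex of a type II receptor (TGFBR2) and a type I receptor (TGFBR1). The type I receptor phosphorylates SMAD2 and SMAD3, which bind DNA together with SMAD4 and switch on target genes, some of which feed back on the pathway. In carcinoma cells the pathway is known for its part in epithelial-mesenchymal transition, where the repressors encoded by SNAI1 and SNAI2 turn down epithelial genes.

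CAOV3 and TOV21G are established ovarian cancer lines, labelled as high grade serous and as clear (clear cell) epithelial cells, both of wild-type genotype. Each line was grown in DMEM with 10% serum and was either left without addition or given 10% ovarian cancer ascites (150 uL in 1.5 mL of medium) for 16 h, with 3 libraries in each of the 4 groups. The protocols name no vehicle for the controls and do not say whether the ascites came from 1 patient or several. The libraries held 26697609 to 34491304 reads. Values are normalised read counts, which are reads divided by a library size factor, and a gene was called changed at an adjusted p under 0.05 from limma over the 17616 genes tested. The labels give 3 samples a group but not whether they were separate cultures, so p-values measure the spread between these samples, which may be technical.

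The epithelial markers had values in both lines, while those of the labelled subtypes were mixed. The 6 epithelial markers summed to 153300 to 154100 normalised read counts in CAOV3 controls and, without overlap, to 177000 to 187500 in CAOV3 ascites. Within that list the mean of the keratin gene KRT8 went from 66470 to 81370, while that of the cadherin gene CDH1 went from 424.7 to 271.7. In TOV21G the epithelial sums overlapped, at 11290 to 12750 in controls and 10700 to 12300 in ascites. The clear cell marker NAPSA stayed under 10 on average in every group. The serous markers went against the labels: PAX8 and WT1 had means of 19.1 and 4.59 in CAOV3 controls and of 7032 and 227.9 in TOV21G controls, and MUC16 had 12.04 and 6.55. Of 8 leukocyte markers 2 had values, CD14 and LYZ, which summed to 117 to 134 in CAOV3 controls, 101 to 125 in CAOV3 ascites, 8.39 to 13.0 in TOV21G controls and 11.6 to 20.4 in TOV21G ascites. The fibroblast list summed to 5157 to 5981 in CAOV3 controls and 4914 to 5055 in CAOV3 ascites. In TOV21G it summed to 12550 to 13080 in controls and 11260 to 11690 in ascites. Different genes made up these sums. In TOV21G controls they were mostly COL1A2 (mean 10854) and COL1A1 (1945), with LUM at 0 and PDGFRA at 1.07. In CAOV3 LUM made up most, and its mean went from 4196 to 3647 with ascites while that of PDGFRA went from 1005 to 1062. The part of these markers in the results below was not tested. In such bulk libraries fewer cells of a type and less RNA per cell cannot be told apart.

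In TOV21G, 3 of the 10 genes were lower with ascites, namely PMEPA1, SMAD7 and SNAI1, and none was higher. In CAOV3, 0 of the 10 were called in either direction with limma, while 3 had an unadjusted p under 0.05 (TGFBR1 0.00169, LTBP2 0.00712 and SKIL 0.0169, each with a log2 fold change below 0). That threshold is loose, since 2280 of all 17616 tested genes had an unadjusted limma p under 0.05 in CAOV3. Counts on the recovered reads gave 1 call there with DESeq2 (TGFBR1) and 0 with edgeR. For comparison, 0.267% of all tested genes were called lower and 0.142% higher in TOV21G, and 1.10% lower and 0.636% higher in CAOV3. The median log2 fold change of the 10 genes was -0.21 in TOV21G, against -0.02 for all tested genes, and -0.02 in CAOV3, against -0.00. The change was below 0 for 9 of the 10 genes in TOV21G, where 56.1% of all tested genes were below 0. SNAI2 is counted among the 9 and in the median, though its sign rests on 2 reads in 1 control library. Where groups are said below not to overlap, the share of all tested genes without overlap is not given. Lack of overlap between 3 and 3 libraries therefore describes the values and does not stand in for a call.

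**Figure D1:**
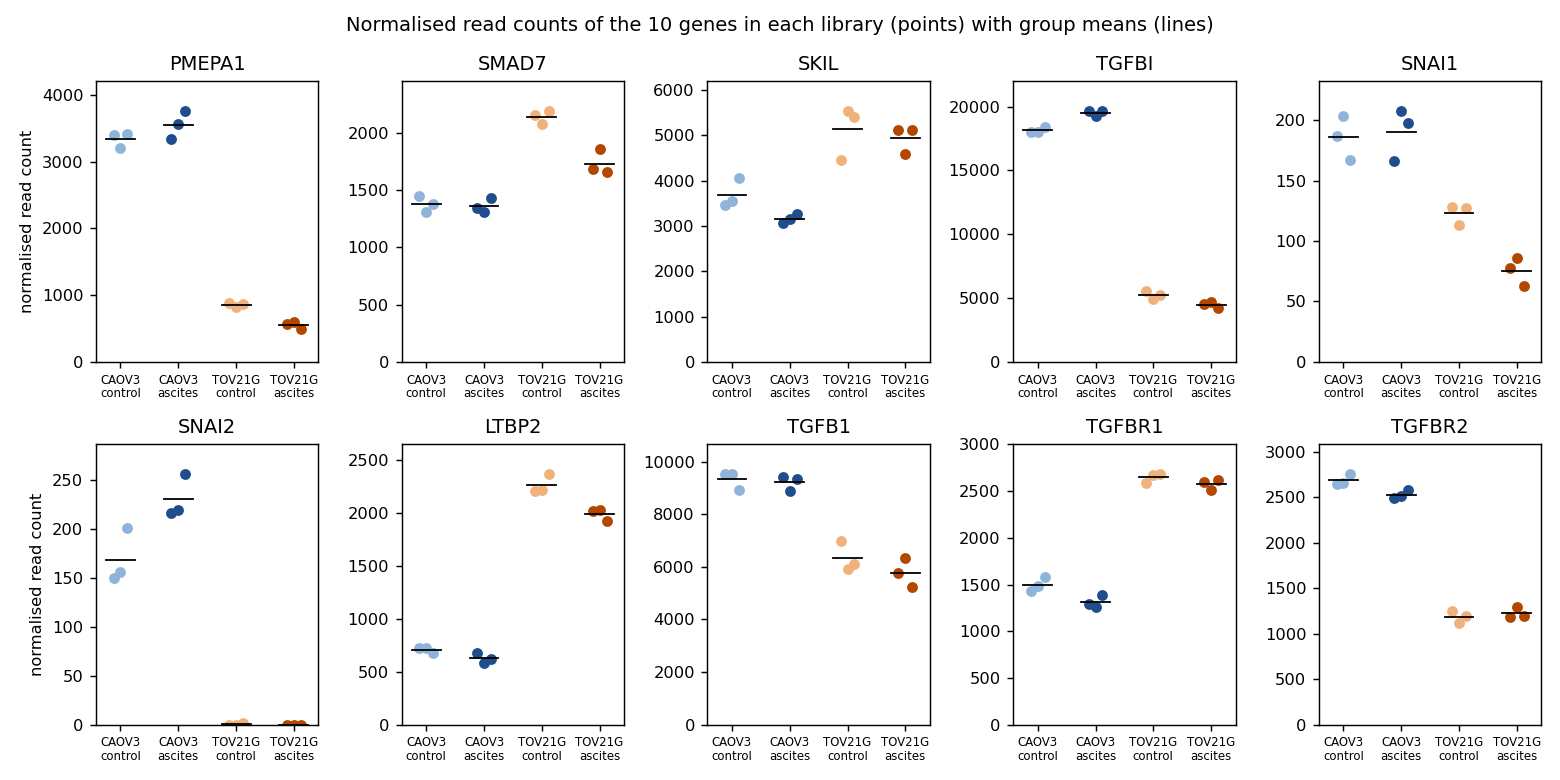
Normalised read counts (vertical axes, from 0) of the 10 genes in every library, grouped by line and treatment; points are libraries and horizontal lines are group means of 3 libraries. PMEPA1, SMAD7 and SNAI1 lie lower in all 3 TOV21G ascites libraries than in all 3 TOV21G controls, and SNAI2 is at or near 0 in TOV21G.

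PMEPA1 encodes a membrane protein that is induced by TGF-beta and restrains SMAD2 and SMAD3 signalling. Its gene (ENSG00000124225) lies on the minus strand of chromosome 20, 57648392 to 57711536 in GENCODE release 29 on GRCh38. SMAD7 (ENSG00000101665, chromosome 18, 48919853 to 48952052, minus strand) encodes the inhibitory SMAD that blocks the activated receptor. Both of these feedback genes were called lower in TOV21G. Sequences across or before some of their annotated starts are shown, taken from RefSeq promoter windows on GRCh38.p14. In them CAGAC and its reverse complement GTCTG, the core of the sequence bound by SMAD3 and SMAD4, are in capitals, and every sequence reads 5′ to 3′ on the gene's strand. The stretches shown are those with matches around 3 of the annotated starts, not all windows of these genes. Those of PMEPA1 cover 150 bases across a transcription start at chr20:57709996-57710145 and chr20:57710558-57710707, and the SMAD7 stretch covers the 250 bases before a start at chr18:48950966-48951215.
PMEPA1 start 1: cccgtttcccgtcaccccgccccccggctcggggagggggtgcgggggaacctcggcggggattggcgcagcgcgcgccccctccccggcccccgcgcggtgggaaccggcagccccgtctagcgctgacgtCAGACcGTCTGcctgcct
PMEPA1 start 2: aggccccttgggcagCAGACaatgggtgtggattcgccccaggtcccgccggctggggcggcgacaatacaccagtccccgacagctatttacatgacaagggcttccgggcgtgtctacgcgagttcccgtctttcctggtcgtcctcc
SMAD7: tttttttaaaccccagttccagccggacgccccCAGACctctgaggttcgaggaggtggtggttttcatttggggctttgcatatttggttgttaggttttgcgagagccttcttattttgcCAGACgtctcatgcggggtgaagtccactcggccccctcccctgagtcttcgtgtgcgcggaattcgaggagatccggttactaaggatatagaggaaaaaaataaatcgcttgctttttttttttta

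In the first PMEPA1 stretch the matches begin at bases 3 and 9 counted from the start, and stand in opposite orientation 1 base apart. In the second the match begins at -115, counted back from the start, and in SMAD7 the matches begin at -217 and -128. RefSeq windows of 300 bases (250 before and 50 from each start) were found for 8 of the 10 genes, 21 windows in all, with SNAI1 and SNAI2 not used here. On either strand, CAGAC or GTCTG was present in 11 of these 21 windows, against 45.3% of all 35116 windows. Some windows of the same gene overlap, as for TGFBR1, so 1 match can count in more than 1 window. By gene, 5 of the 8 had a match, with no share over all genes to set beside it. The longer CAGACA, which contains CAGAC, was in 3 of the 21 windows, against 16.9% of all. The palindrome GTCTAGAC was in 0 of the 21 windows and in 0.202% of all, and the AP-1 motif TGANTCA was in 1 of the 21, a TGFBR2 window, and in 7.71% of all. These are matches of letters in one window each and describe no binding.

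PMEPA1 stood at 877, 822 and 874 normalised read counts in the TOV21G controls and at 572, 602 and 485 in the ascites libraries. Every ascites library lay below every control. The log2 fold change was -0.64 (SE 0.07, 95% interval -0.79 to -0.48, adjusted p 0.00115), and it was called in all 12 fits that left out 1 library. With TOV21G fitted alone, where 8 genes in all were called, the adjusted p was 0.341. In CAOV3 PMEPA1 stood at 3392, 3210 and 3408 in controls and 3343, 3562 and 3755 in ascites, with overlapping groups and a log2 fold change of 0.09 (interval -0.06 to 0.24, adjusted p 0.656). The difference between the responses was -0.73 (SE 0.10, adjusted p 0.00664). PMEPA1 was the 1 gene of the 10 called for this difference, where 0.307% of all tested genes were called lower and 0.238% higher. The non-coding gene NKILA lies on the opposite strand within the PMEPA1 gene, and strandedness of the counts was not given in the sources used here. NKILA had means of 16.7 ± 7.16 in TOV21G controls and 13.3 ± 2.96 in ascites (SD, n = 3), far below PMEPA1.

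SMAD7 stood at 2155, 2080 and 2192 normalised read counts in TOV21G controls and at 1684, 1857 and 1661 with ascites, again without overlap. The log2 fold change was -0.31 (SE 0.05, interval -0.42 to -0.19, adjusted p 0.0265). Leaving out 1 library ended this call in 5 of 12 cases, most clearly for TOV21G control replicate 3 (adjusted p 0.129), as did a fit of TOV21G alone (adjusted p 0.372). In CAOV3 the groups overlapped, at 1453, 1310 and 1384 in controls and 1348, 1310 and 1428 in ascites. The interval of the CAOV3 change was -0.14 to 0.10 on the log2 scale. The difference between the lines was -0.29 (SE 0.08) and was not called (adjusted p 0.172).

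SNAI1 (ENSG00000124216, chromosome 20, 49982999 to 49988886, plus strand) encodes the zinc finger repressor SNAIL. Its values were low in TOV21G, at 128, 113 and 127 normalised read counts in controls and 77.9, 85.8 and 62.6 in ascites, without overlap. The log2 fold change was -0.71 (SE 0.14, interval -1.0 to -0.41), and the adjusted p of 0.0462 was close to the threshold. Leaving out 1 library ended the call in 11 of 12 cases (adjusted p up to 0.176, for TOV21G control replicate 3), as did a fit of TOV21G alone (0.487). In CAOV3, SNAI1 stood at 187, 203 and 167 in controls and 166, 208 and 197 in ascites, so the groups overlapped, with an interval of -0.26 to 0.33. The difference between the lines was -0.74 (SE 0.19) and missed the threshold (adjusted p 0.155).

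TGFBI (ENSG00000120708, chromosome 5, 136028895 to 136063818, plus strand) encodes a secreted matrix protein induced by TGF-beta. In TOV21G it stood at 5530, 4914 and 5261 normalised read counts in controls and 4521, 4693 and 4196 in ascites. In CAOV3 the order was the other way, with 18034, 18005 and 18402 in controls and 19642, 19254 and 19643 in ascites. The groups did not overlap in either line. Neither change was called: the log2 fold change was -0.23 in TOV21G (SE 0.05, adjusted p 0.0911) and 0.10 in CAOV3 (SE 0.05, adjusted p 0.402). The difference of -0.33 (SE 0.07) had an adjusted p of 0.0595. With TMM scaling, a different way of setting the library sizes, the TOV21G change of -0.20 and the difference of -0.31 were both called (adjusted p 0.0261 and 0.0172 with limma).

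**Figure D2:**
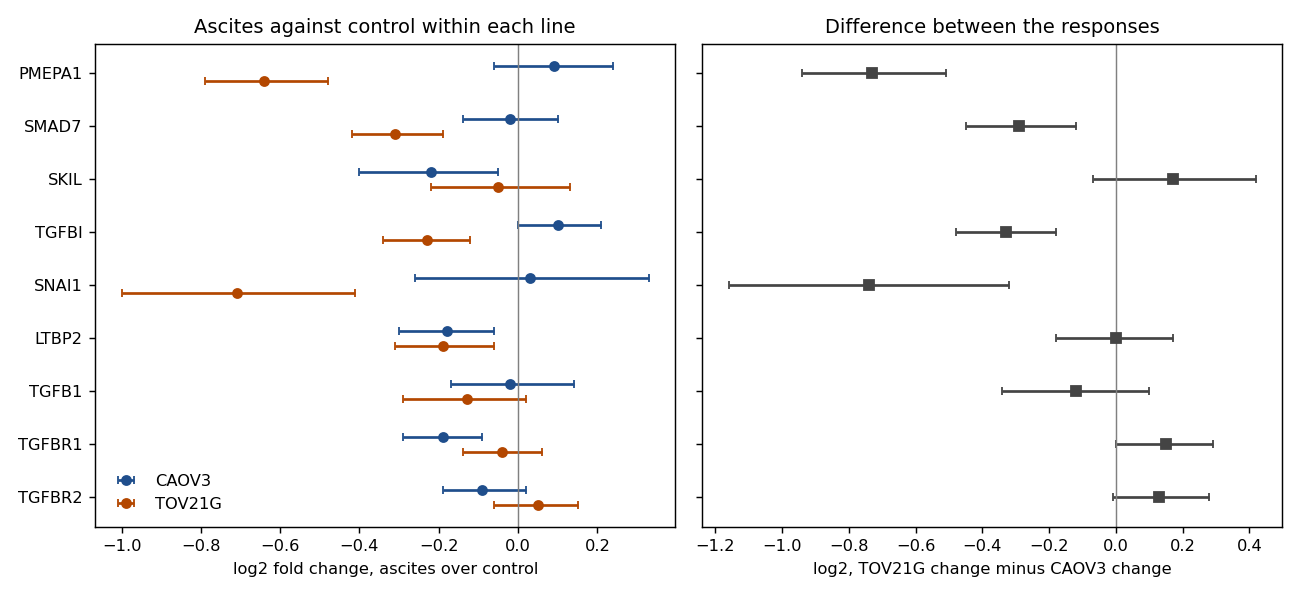
Left, log2 fold change of ascites over control in CAOV3 (blue) and TOV21G (orange) for 9 of the 10 genes; right, the TOV21G change minus the CAOV3 change. Points are limma estimates and bars are 95% intervals, not adjusted for the number of genes. SNAI2 is left out because it was at or near 0 in TOV21G, and the intervals of the lines lie apart for PMEPA1, SMAD7, SNAI1 and TGFBI, of which PMEPA1 was called for the difference.

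SKIL (ENSG00000136603, chromosome 3, 170357678 to 170396835, plus strand) encodes SnoN, a repressor of SMAD complexes and a known feedback target. In TOV21G its groups overlapped, with 4447, 5534 and 5406 normalised read counts in controls and 5122, 4579 and 5127 in ascites, a log2 fold change of -0.05 (interval -0.22 to 0.13). In CAOV3 the ascites libraries, at 3057, 3156 and 3263, lay below the controls, at 3468, 3558 and 4048. That change of -0.22 (SE 0.08) was not called (adjusted p 0.241).

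SNAI2 encodes the related repressor SLUG and lies on chromosome 8, 48917604 to 48921740, minus strand (ENSG00000019549). It had 149.8, 156 and 200.9 normalised read counts in CAOV3 controls and 217, 220 and 257 in ascites, so the groups did not overlap. The log2 fold change of 0.46 (SE 0.34) was not called (adjusted p 0.636), and its SE comes from a spread shared with TOV21G libraries that held next to no reads. In TOV21G it had 2 reads over the 3 controls and 0 over the 3 ascites libraries, so no fold is given there. It passed the filter on low values through CAOV3 alone.

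LTBP2 (ENSG00000119681, chromosome 14, 74498170 to 74612378, minus strand) encodes a matrix protein of the latent TGF-beta binding family. Its change was called in neither line. The values in TOV21G were 2209, 2212 and 2370 normalised read counts in controls and 2021, 2026 and 1921 in ascites (log2 fold change -0.19, SE 0.06, adjusted p 0.302). In CAOV3 they were 721, 721 and 681 in controls and 676, 578 and 621 in ascites (log2 fold change -0.18, SE 0.06, adjusted p 0.166). Within both lines the ascites libraries lay below the controls. The interval of the difference between the lines was -0.18 to 0.17.

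TGFB1 (ENSG00000105329, chromosome 19, 41301587 to 41353911, minus strand) encodes the ligand. Its groups overlapped in both lines. CAOV3 controls stood at 9524, 9538 and 8904 normalised read counts and the ascites libraries at 9421, 8887 and 9356, with an interval of -0.17 to 0.14 on the log2 scale. TOV21G controls stood at 6981, 5919 and 6112 and the ascites libraries at 5765, 6326 and 5230, with an interval of -0.29 to 0.02. TGFB1 overlaps 4 annotated genes on the opposite strand, so its counts are less certain than those of SMAD7, SKIL, TGFBI, SNAI1 and SNAI2, which overlap none.

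The receptor genes were not called in either line. TGFBR1 (ENSG00000106799, chromosome 9, 99104038 to 99154192, plus strand) stood at 1425, 1483 and 1582 normalised read counts in CAOV3 controls and at 1293, 1256 and 1389 in ascites, without overlap (log2 fold change -0.19, SE 0.05, adjusted p 0.0767). A call was made without CAOV3 ascites replicate 3 (adjusted p 0.0486) and by DESeq2 (adjusted p 0.0335). In TOV21G it stood at 2589, 2675 and 2685 and at 2597, 2508 and 2619, with an interval of -0.14 to 0.06. TGFBR2 (ENSG00000163513, chromosome 3, 30606502 to 30694142, plus strand) stood at 2642, 2655 and 2755 in CAOV3 controls and 2491, 2510 and 2579 in ascites, again without overlap (log2 fold change -0.09, interval -0.19 to 0.02). Its TOV21G groups overlapped, at 1243, 1111 and 1192 in controls and 1181, 1289 and 1193 in ascites.

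The TOV21G libraries varied along an axis with which most of these genes varied too. After group means were removed, a single axis carried 50.5% of the variance in TOV21G and 31.2% in CAOV3. The lowest scores on it belonged to control replicate 1 (-13.9) and ascites replicate 2 (-12.6), the highest to control replicate 2 (12) and ascites replicate 3 (9.85). Over the 6 libraries the deviations from the group means had a Pearson r with this score of -0.74 for PMEPA1, -0.76 for SMAD7, -0.80 for SNAI1, -0.95 for TGFBI, -0.97 for TGFB1 and -0.94 for TGFBR2, against 0.93 for both SKIL and TGFBR1 and -0.22 for LTBP2. These correlations share the libraries and their depth and are given as a description. The axis was taken from 11886 genes of the same 6 libraries. The r of genes in general with it was not computed, so these values do not set the 10 genes apart. With control replicate 1 and ascites replicate 2 left out, an alternative chosen after seeing the data, 2 genes were called lower in TOV21G, PMEPA1 (-0.68, adjusted p 0.00236) and SMAD7 (-0.35, adjusted p 0.021). The same fit called SKIL (adjusted p 0.0388) and TGFBR1 (adjusted p 0.0493) lower in CAOV3, since the lines share 1 estimate of the spread. With control replicate 2 and ascites replicate 3 left out, PMEPA1 alone was called (-0.58, adjusted p 0.00174), and SMAD7 had -0.30 (adjusted p 0.115).

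**Figure D3:**
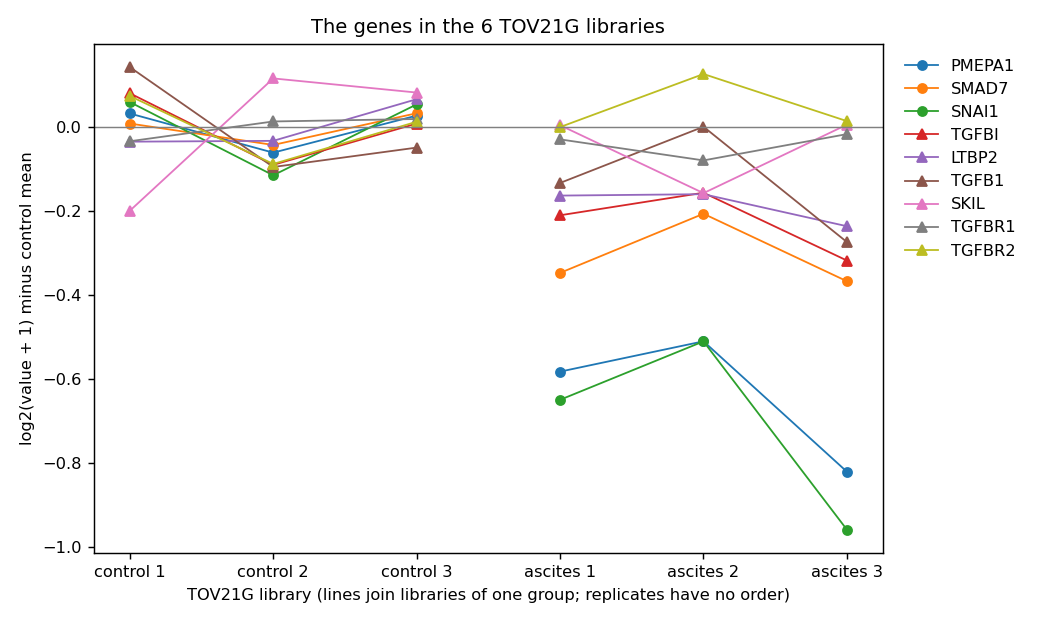
Log2(value + 1) of 9 of the genes in each TOV21G library, relative to the mean of the 3 controls; circles mark the 3 genes called lower and triangles the others, and lines join libraries of 1 group, which have no order. PMEPA1 and SNAI1 lie deepest in all 3 ascites libraries, with ascites replicate 3 lowest and ascites replicate 2 highest for both.

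Genes whose pattern was most like that of the called genes were looked up over the 12 libraries after the mean of the line was removed. PMEPA1 and SNAI1 had a Pearson r of 0.941 and PMEPA1 and SMAD7 one of 0.928, each among the 5 highest for SNAI1 and SMAD7. For PMEPA1 the 5 highest were HBQ1 (0.971), DYNC1LI2-DT (0.951), PFKFB3 (0.946), ECEL1 (0.945) and FOXA2 (0.941). HBQ1 and ECEL1 were listed at 0 on average in CAOV3, so their likeness rests on TOV21G. DYNC1LI2-DT, at a mean of 8.65 in TOV21G, and FOXA2, at 12.8, rest on few reads there. For SNAI1 the others were DYNC1LI2-DT, HBQ1, MCAM and FOXA2, and for SMAD7 they were CRIP2, VSTM2B, SYT13 and NACC2. Part of each r is the treatment difference that these genes share in TOV21G.

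All 10 genes were called different between the untreated lines. Against CAOV3, TOV21G controls were higher for 4 (SMAD7, SKIL, LTBP2 and TGFBR1) and lower for 6 (PMEPA1, TGFBI, SNAI1, SNAI2, TGFB1 and TGFBR2). This count says little by itself, since 40.8% of all tested genes were called higher and 41.4% lower in that comparison. The receptors went opposite ways: TGFBR1 had a log2 difference of 0.82 (SE 0.05, adjusted p 1.4e-09) and TGFBR2 one of -1.18 (SE 0.05, adjusted p 3.08e-11). Among the targets, PMEPA1 had -1.96 (SE 0.07) and TGFBI -1.79 (SE 0.05), while SMAD7 had 0.63 (SE 0.05), SKIL 0.47 (SE 0.08) and LTBP2 1.68 (SE 0.06). TGFB1 had -0.56 (SE 0.07) and SNAI1 -0.59 (SE 0.14). For SNAI2 the CAOV3 controls held 480 reads and the TOV21G controls 2, a ratio of 254 with an exact 95% interval of 70.1 to 2107 that covers counting error only.

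Levels were compared between genes per kilobase of annotated exon. In both untreated lines TGFB1 was the most abundant of the 10 genes by this measure, at 2879 ± 112 normalised read counts per kb in CAOV3 and 1957 ± 175 in TOV21G (SD, n = 3). TGFBI came next in CAOV3, at 2324 ± 28.4, and in TOV21G its 670 ± 39.6 overlapped with SKIL at 659 ± 76.3. In CAOV3 PMEPA1 (594 ± 19.6) and TGFBR2 (571 ± 13.2) overlapped, and SKIL, SMAD7, TGFBR1, SNAI1, LTBP2 and SNAI2 followed in that order without overlap, from 474 ± 40.1 down to 49.8 ± 8.22. In TOV21G SMAD7 (426 ± 11.3) and TGFBR1 (387 ± 7.76) came next, TGFBR2 (251 ± 14.1) and LTBP2 (249 ± 10.1) overlapped, and PMEPA1 (153 ± 5.50), SNAI1 (72.9 ± 4.94) and SNAI2 were lowest. TGFBR2 thus stood above TGFBR1 in CAOV3 (219 ± 11.5) and below it in TOV21G.

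**Figure D4:**
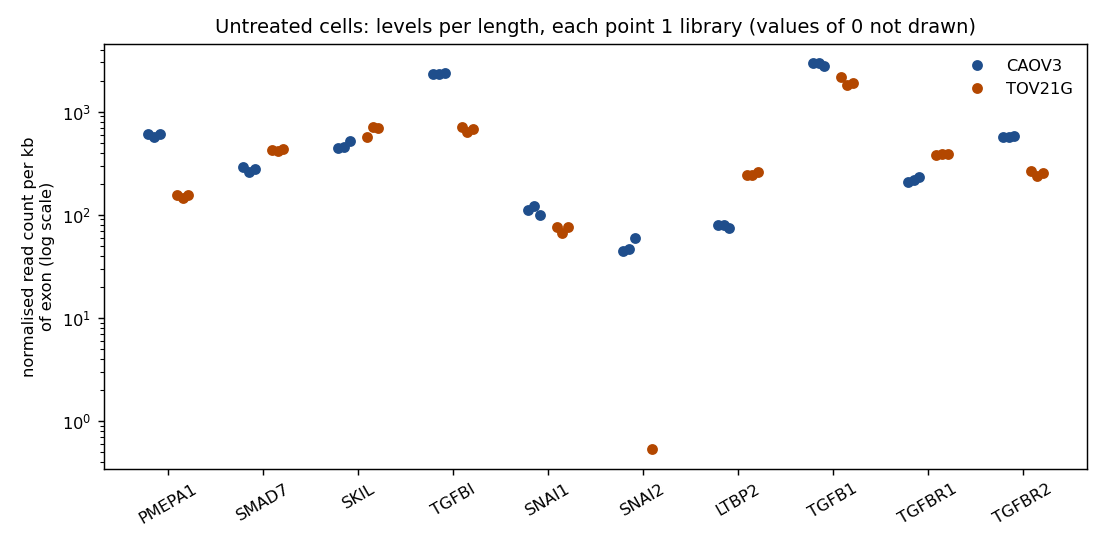
Normalised read counts per kb of exon (vertical log axis) of the 10 genes in untreated CAOV3 (blue) and TOV21G (orange); each point is 1 library, and the 2 TOV21G controls with a SNAI2 value of 0 are not drawn. TGFB1 is highest in both lines, and TGFBR1 and TGFBR2 change places between them.

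The rest of the pathway was described from 4 lists with 113 genes, of which 106 were tested. Beside the counts below stand the shares of all tested genes called, 0.142% higher and 0.267% lower in TOV21G and 0.636% higher and 1.10% lower in CAOV3. Of 24 receptors, SMADs and regulators, 2 rose and 0 fell in TOV21G, and 1 rose (ENG, a coreceptor gene, by 0.30, adjusted p 0.0394) and 1 fell in CAOV3. SMAD3, the signal-carrying SMAD, rose in TOV21G from 3795, 4001 and 3877 to 5364, 5049 and 5202 normalised read counts. Its groups did not overlap (a log2 change of 0.42, SE 0.04, with an adjusted p of 0.000125), and it was called in all 12 fits that left out 1 library. In CAOV3 it had 6664 ± 50.5 in controls and 6603 ± 112 in ascites (SD, n = 3), an interval of -0.09 to 0.06, and the difference between the lines was 0.43 (SE 0.05, adjusted p 0.00267). The SMAD corepressor gene TGIF2 rose by 0.24 in TOV21G (adjusted p 0.0374), a call that 10 of the 12 leave-one-out fits did not make (adjusted p up to 0.138). In CAOV3 ZFYVE9, which encodes the SMAD anchor SARA, fell by 0.24 (adjusted p 0.016). The ENG call was lost in 7 and the ZFYVE9 call in 3 of 12 fits without 1 library, ENG with up to 0.158 and ZFYVE9 with up to 0.0812.

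Of 18 ligand, latency and activation genes tested, 1 fell in each line. LTBP4, another latency protein gene, fell in CAOV3 from 2387 ± 51 to 2068 ± 57.4, which is -0.21 on the log2 scale (SE 0.03, adjusted p 0.00592). FURIN, which encodes the protease that cleaves the TGF-beta precursor, fell in TOV21G from 4920 ± 216 to 4076 ± 295, which is -0.27 on the log2 scale (SE 0.05, adjusted p 0.0365), a call that 10 of the 12 leave-one-out fits did not make (adjusted p up to 0.12).

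Of 50 other TGF-beta target genes tested, 0 were called in TOV21G and 6 in CAOV3, where JUNB, BHLHE40, ANGPTL4 and VEGFA rose and CCN2 and COL1A2 fell. Leaving out 1 library ended the CAOV3 call of CCN2 in 9 of 12 fits (adjusted p up to 0.154), of BHLHE40 in 7 (0.165) and of VEGFA in 6 (0.0995), and of JUNB, ANGPTL4 and COL1A2 in 0. Many of these genes answer to other signals too. ANGPTL4, which encodes a secreted lipase inhibitor, rose in CAOV3 from 803 ± 38.2 to 1132 ± 24.3, a log2 change of 0.50 (SE 0.06, adjusted p 0.000509), and the AP-1 gene JUNB from 2304 ± 175 to 3167 ± 96.2 (0.46, SE 0.07, adjusted p 0.00318). The call at COL1A2 rests on values of 2.46 ± 0.442 and 0.365 ± 0.632 in CAOV3. The difference between the lines was called for 6 of the 50, all with a lower change in TOV21G, among them VEGFA (-0.37), ANGPTL4 (-0.54), JUNB (-0.54), BHLHE40 (-0.42) and GADD45B (-0.59). All of these are named because they were called, and GADD45B (adjusted p 0.0482 with limma) lay outside the planned limit on named genes. The differences of JUNB and BHLHE40 were lost in 9 of the 12 leave-one-out fits each and that of GADD45B in 10, while VEGFA and ANGPTL4 kept theirs in all 12.

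Of 14 genes of the BMP branch, which runs through other SMADs, ID2, ID3 and MSX2 fell in both lines and none rose, where 1.10% of all tested genes were called lower in CAOV3 and 0.267% in TOV21G. ID3, which encodes an inhibitor of basic helix-loop-helix factors, fell from 3856 ± 149 to 3098 ± 65.6 in CAOV3 (-0.31, adjusted p 0.018) and from 13582 ± 970 to 10671 ± 848 in TOV21G (-0.35, adjusted p 0.0261). The TOV21G calls were lost in 7 (ID2), 8 (ID3) and 7 (MSX2) of 12 fits without 1 library, and the CAOV3 calls in 0 (ID2), 5 (ID3) and 9 (MSX2). The difference between the lines was called for 0 of the 14.

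**Figure D5:**
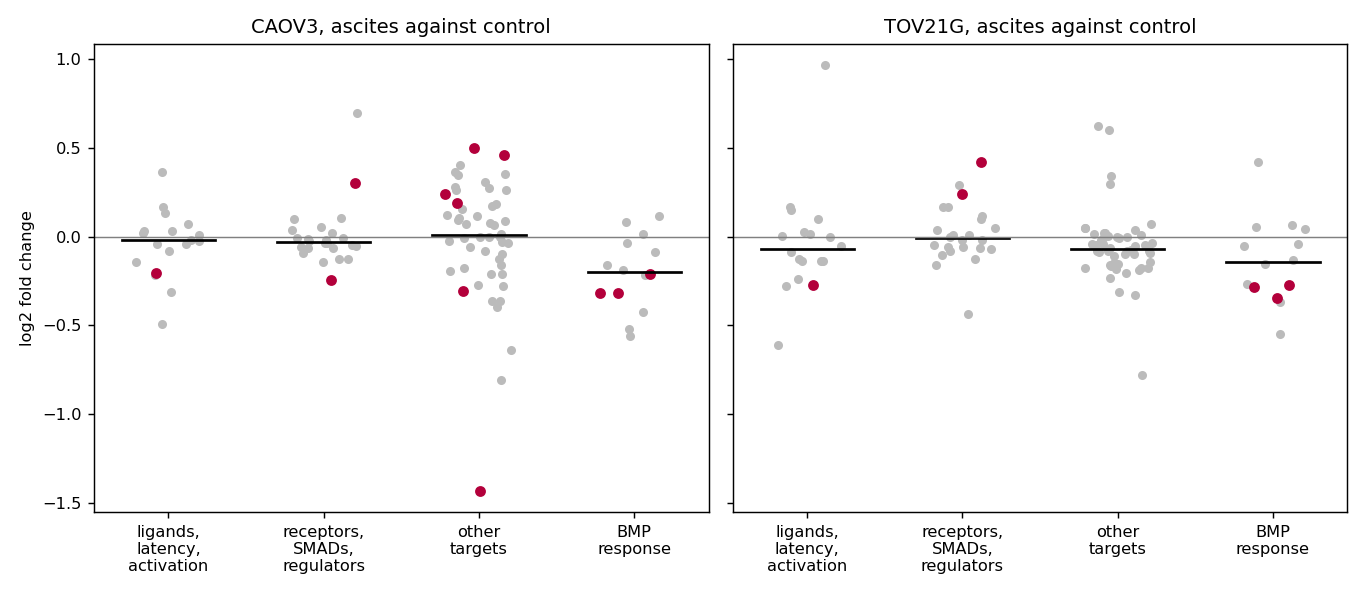
Log2 fold change of ascites over control (vertical axis) for the tested genes of the 4 pathway lists in CAOV3 (left) and TOV21G (right); each point is a gene, red points were called at an adjusted p under 0.05, and black lines are medians. The BMP list has the lowest median in both lines, -0.20 in CAOV3 and -0.14 in TOV21G.

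Between the untreated lines 59 of the 106 pathway genes were higher and 43 lower in TOV21G, again in a comparison where most genes differed. COL4A1 stood at 1.43 ± 0.633 in CAOV3 controls and 42452 ± 625 in TOV21G, COL4A2 at 9.28 ± 3.03 and 25788 ± 418, and COL1A2 at 2.46 ± 0.442 and 10854 ± 308. These are collagen genes and TGF-beta targets. FN1, which encodes fibronectin, went the other way, at 12443 ± 353 and 4.03 ± 1.07, as did the protease inhibitor gene TIMP3, at 1824 ± 101 in CAOV3 and listed at 0 in TOV21G. ID4 of the BMP branch stood at 2.83 ± 2.47 and 22983 ± 687.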

How the data were processed

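RNA from 12 libraries of 2 cell lines was measured by RNA sequencing. Trim Galore, cutadapt, STAR, HTSeq and DESeq are named in the submitters' processing notes, with no versions; the genome build and strandedness are not given in the sources used here. The deposited unit is a normalised read count per gene (a signal that is never negative). In each library 100% of values were whole multiples of 1 step (tolerance 0.01 reads), and the reciprocals of the steps equalled median-of-ratios size factors over the 12 libraries, so the authors' values are reads divided by those factors. Reads were recovered by dividing by the step.

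Genes with a value of at least 10 in at least 3 libraries were tested with limma 3.58.1 in R 4.3.3 (eBayes with a trend) on log2(value + 1), all libraries in 1 fit with a mean per group. This scale understates changes of low genes. P-values are two-sided, Benjamini-Hochberg adjusted per contrast over all tested genes. Alternatives were other pseudocounts, filters and scalings, edgeR 4.0.16, DESeq2 1.42.0 and limma-voom on the recovered reads, each line alone, a replicate block and leaving out libraries. Symbols came from a table of gene names (19087 identifiers) and GENCODE release 29 (136), and 28 had none. Coordinates are GENCODE's and entered no test. Each library held at least 26697609 reads, and for genes with few reads, such as SNAI1, counting error is a large part of the spread between replicates.

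The 10 genes and all lists were chosen with earlier results of these data known. Named pathway genes were those called. The plan was at most the 6 with the smallest adjusted p per contrast (for the untreated lines, the 6 largest differences with a mean of at least 100 in the higher line). In CAOV3 more were named, and for the difference GADD45B lay outside this limit. Some genes of the lists are counted but not reported by name here.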

Additional observations from a re-analysis of the deposited data

Results flagged for a closer look

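PMEPA1 differed in its ascites response between the lines: its log2 fold change was 0.73 lower in TOV21G than in CAOV3 (a difference of -0.73, SE 0.10, adjusted p 0.00664 with limma), tested as an interaction. All 3 TOV21G ascites libraries lay below the 3 controls, while the CAOV3 groups overlapped.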

How the results depend on the processing

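Higher calls among the 10 genes numbered 0 within either line and for the difference, and the untreated lines gave 4 higher and 6 lower calls, under every alternative run. Lower calls in CAOV3 (0) became 1 with DESeq2 and 2 without TOV21G control 1 and ascites 2, and were 0 to 1 when 1 library was left out. Lower calls in TOV21G (3) became 0 with each line fitted alone and 1 without TOV21G control 2 and ascites 3. They were 1 to 4 when 1 library was left out. TMM scaling, size factors within each line, edgeR and DESeq2 gave 4, with TGFBI added. With limma-voom they were 3, with TGFBI in place of SNAI1. Lower calls for the difference (1) became 2 with a minimum value of 50, TMM scaling, size factors within each line, edgeR, limma-voom or either pair of TOV21G libraries left out, 3 with DESeq2, and 1 to 2 when 1 library was left out.

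Over all genes, the 305 calls in CAOV3 became 511 with edgeR, 507 with DESeq2, 584 with limma-voom, 614 without TOV21G control 1 and ascites 2, and 172 to 344 without 1 library. The 72 calls in TOV21G became 8 with the line alone, 114 with edgeR, 151 with DESeq2, 127 with limma-voom and 24 to 136 without 1 library. The 96 calls for the difference became 151 with TMM, 155 with size factors within each line, 148 with edgeR, 210 with DESeq2, 178 without TOV21G control 1 and ascites 2, and 40 to 146 without 1 library. The cause was not tested.

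Signs turned for these values, none of which was called. The LTBP2 difference was 0.02 with TMM, edgeR and limma-voom, 0.01 with size factors within each line, 0.0038 without TOV21G control 2 and ascites 3, and -0.06 to 0.05 without 1 library. Without 1 library, SMAD7 in CAOV3 ran from -0.06 to 0.02, SKIL in TOV21G from -0.15 to 0.01, SNAI1 in CAOV3 from -0.04 to 0.13 and TGFB1 in CAOV3 from -0.05 to 0.01. SNAI2 in TOV21G, on 2 reads, ran from -0.74 to 0.

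Same-numbered libraries did not deviate together (r from -0.0689 to 0.0603 in CAOV3 and from -0.417 to 0.0726 in TOV21G), so the samples share only a number. With a replicate block, lower calls of the 10 genes were 0 in CAOV3, 1 in TOV21G (PMEPA1, adjusted p 0.0385 with limma) and 0 for the difference (PMEPA1 0.0872), and calls over all genes were 116, 13 and 9. Low read numbers limit SNAI2 in TOV21G, where a change could not be measured.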
